A study of Mus musculus with 7 samples.

Results

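The 32 genes described here encode the glucose transporters, the enzymes of glycolysis from hexokinase to lactate dehydrogenase, the lactate transporters, pyruvate dehydrogenase with a kinase that switches it off, and a small group of genes of the hypoxia response. They were taken by name from the 50435 gene rows of a table of marrow RNA, and all 32 names were found. The series compared mice after loss of classical dendritic cells with control mice. Irradiated wild-type recipients had been given Zbtb46dtr marrow, whose receptor for diphtheria toxin follows the expression of Zbtb46, a marker gene of classical dendritic cells, so the controls carry the allele too. Recipient cells, endothelium among them, do not carry it. At 8 weeks the mice received, into the peritoneum, either 200 ng of diphtheria toxin in 100 ul of PBS (DT, 3 libraries) or 100 ul of PBS alone (PBS, 4 libraries), and marrow was taken 1 day later. Cells negative for CD45, Ter119, Gr1 and CD11b, negative for Sca1 and positive for CD31 were sorted as sinusoidal endothelial cells. The labels call the libraries biological replicates and give no age, sex or strain, nor whether animals were pooled; the p-values measure the spread between these libraries.

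Glycolysis splits glucose into pyruvate and yields ATP without oxygen. Several of its steps can be run by alternative enzymes, isoenzymes, which are encoded by separate genes, are expressed in different tissues and respond to different control signals. When oxygen is low, hypoxia-inducible factor (HIF) accumulates because prolyl hydroxylases no longer mark it for destruction, and it raises many glycolytic genes together with genes for lactate export. Neutrophils and macrophages rely largely on glycolysis, and maturing red cells depend on it once their mitochondria are gone.

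Values are in RPM, the reads of a gene scaled to a library of 1000000 reads, and changes are differences of log2(RPM + 1), DT minus PBS, which understate the change of low genes. Libraries held about 33200000 to 51300000 reads, judged from the value of 1 read, and 3 reads correspond to 0.0585 to 0.0904 RPM, a limit for counting error only. The 14100 genes that averaged 1 RPM or more were fitted together with limma, and a gene was called at a Benjamini-Hochberg adjusted p under 0.05. Of the genes tested, 13.4% rose and 18.6% fell after DT, so that 41.9% of the calls were rises. The median change of all tested genes was -0.23, and a median-ratio scaling of the libraries moved it to -0.01 and the share of rises among the calls to 65.6%. The 95% intervals given are those of limma and are not adjusted.

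The sorted cells carried little of the endothelial program and much RNA of blood cells. Cdh5, the endothelial cadherin, was at 2.68, 0.511, 0 and 0.0517 RPM in PBS 1 to 4 and at 3.39, 1.81 and 1.09 RPM in DT 1 to 3, and Stab2, a scavenger receptor of sinusoids, at 0 to 0.767 RPM after PBS and 0.143 to 4.45 RPM after DT. Pecam1, the gene of CD31, which many leukocytes express as well, and Egfl7 led the 12 endothelial markers, whose sum was 138 to 167 RPM after PBS and 108 to 136 RPM after DT; 7 passed the filter, 1 rose and 1 fell. Of 9 sinusoidal markers 4 passed the filter and 3 rose, led by Vcam1 and Fcgr2b, with sums of 34.4 to 59.6 and 170 to 423 RPM. Mrc1, 1 of the 3, also stands in the list of monocyte and macrophage markers below, so its rise is counted in both lists. Whether the rises of sinusoidal markers came from endothelium was not tested.

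Markers of blood cells differed far more. All 12 neutrophil markers rose, led by Ngp and S100a8, and their sum went from 1636 to 3101 RPM after PBS to 54830 to 58646 RPM after DT. All 10 monocyte and macrophage markers, led by Lyz2 and Ly6c2, rose, with sums of 375 to 744 and 6604 to 8231 RPM. All 8 T and natural killer cell markers, led by Nkg7 and Trbc2, rose as well, with sums of 22.01 to 55.1 and 323 to 342 RPM. Among 12 erythroid markers, led by Car2 and Car1, 9 fell and 3 rose. The erythroid sum was 919 RPM in PBS 1 but 11100, 7387 and 6825 RPM in PBS 2 to 4, against 1516, 2027 and 1759 RPM in DT 1 to 3. The 3 that rose, Hbb-bs, Hba-a1 and Alas2, which serve hemoglobin synthesis, carried most of the DT sums. The 9 that fell summed to 726 RPM in PBS 1, 6470 to 10465 RPM in PBS 2 to 4 and 211 to 376 RPM after DT, so that on these markers PBS 1 lay between the other PBS libraries and DT. PBS 1 was also the highest PBS library for the neutrophil, monocyte and T and natural killer cell sums, at 3101, 744 and 55.1 RPM. Of 10 B lineage markers, led by Cd79a and Cd79b, 9 fell (5492 to 8111 against 3378 to 3760 RPM), and 0 of 5 tested megakaryocyte markers, led by Pf4 and Ppbp, passed (51.9 to 214 against 50.7 to 153 RPM). Mixed RNA of this kind cannot tell fewer cells of a type from less RNA per cell, and the part of these cell markers in the values of the glycolytic genes was not tested. In DT 3, skeletal muscle RNA also stood out. A list of 10 muscle genes, chosen after values had been seen, summed to 1970 RPM there, against 94.5 RPM in DT 2, 4.74 RPM in DT 1 and 3.13 to 9.08 RPM after PBS; Acta1, the actin of skeletal muscle, reached 747 RPM in DT 3 and 42.0 RPM in DT 2.

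Of the 32 genes, 31 passed the filter on low values; Eno2, the neuronal enolase, did not. By limma, 17 rose after DT, against 13.4% of all tested genes, and 1 fell, against 18.6%; 13 did not pass. The same 18 were the genes whose libraries did not overlap between the groups. Non-overlap with DT higher was found for 16.1% of all tested genes and with DT lower for 24.7%. The median change of the 31 was 0.98, beside -0.23 for all tested genes. Every one of the 17 rises kept its direction in every alternative fit that tested it. Leaving out PBS 1 left 17 rises and gave 4 falls. That library was the lowest PBS library in erythroid RNA and the highest in neutrophil and monocyte RNA. Leaving out DT 3, the library with muscle RNA, gave 15 rises and 1 fall.

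**Figure D1:**
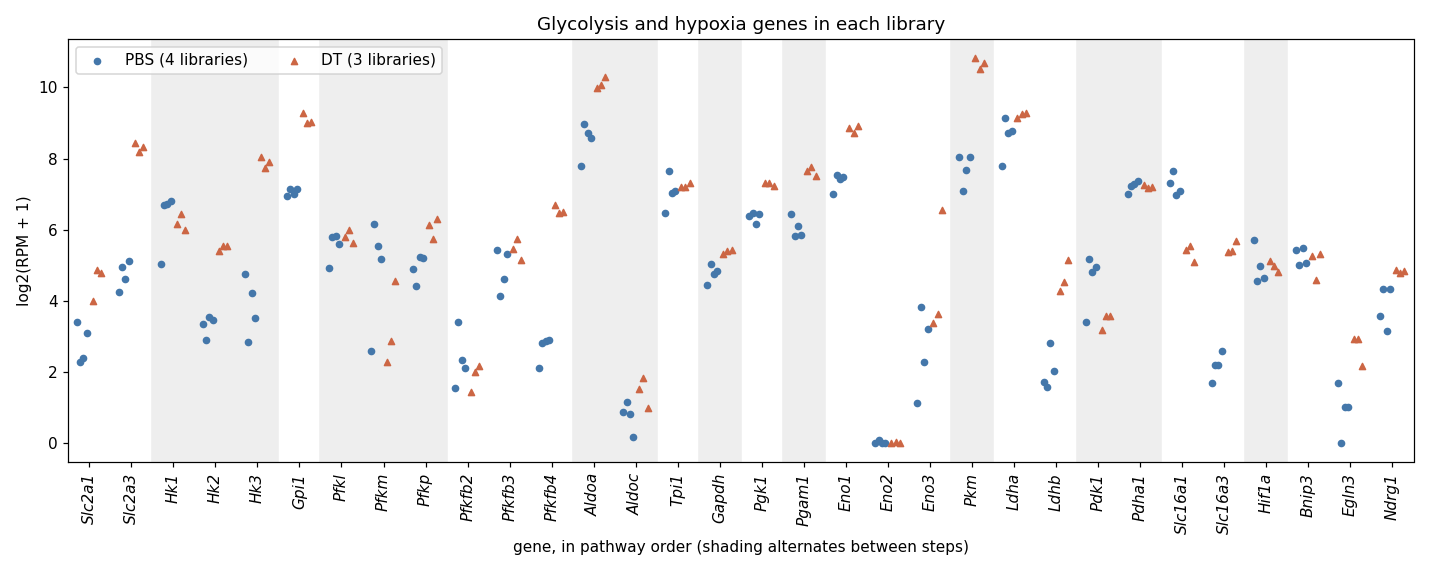
Level of each of the 32 genes in every library, as log2(RPM + 1), in pathway order, with PBS libraries as circles and DT libraries as triangles, drawn from left to right in label order; shading alternates between steps. The 3 DT libraries lie above all 4 PBS libraries for 17 genes and below them for Slc16a1, and Eno2 lies at 0 throughout.

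**Figure D2:**
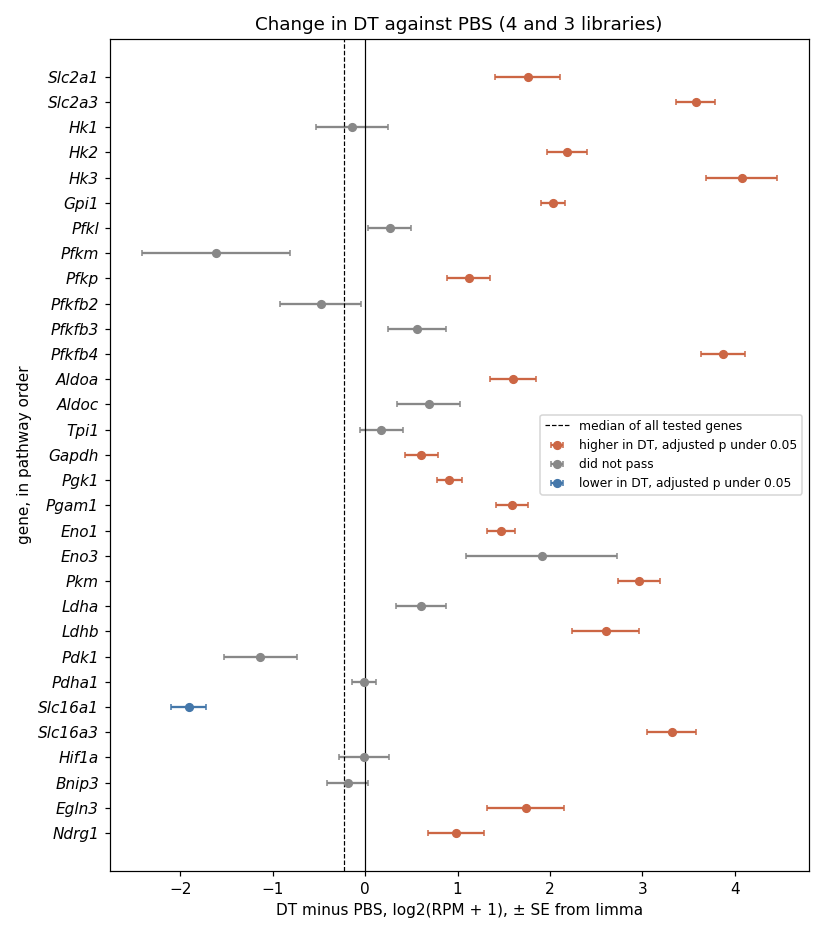
Difference of DT and PBS for the 31 tested genes on the log2(RPM + 1) scale, with bars of 1 standard error from limma; red and blue mark genes that rose or fell at an adjusted p under 0.05, grey those that did not pass, and the dashed line is the median of all tested genes at -0.23. The largest rises are those of Hk3, Pfkfb4, Slc2a3 and Slc16a3, and Slc16a1 is the single fall.

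Both glucose transporters rose. Slc2a3 encodes GLUT3, a transporter with high affinity for glucose that is prominent in neurons and in leukocytes. It was read at 18.0, 30.0, 23.6 and 34.0 RPM in PBS 1 to 4 and at 347, 289 and 318 RPM in DT 1 to 3. Each DT library was far above each PBS library, and the ratio of the group means was 12.1 (limma log2 change 3.58 ± 0.21, SE, adjusted p = 3.14e-06). Its change was 169th among the 14100 tested genes. Slc2a1 encodes GLUT1, the widespread basal transporter that is prominent in the endothelium of the brain. Its levels were 9.51, 3.86, 4.24 and 7.59 RPM after PBS and 15.1, 27.98 and 26.6 RPM after DT, with DT 1 the lowest of the DT group and no overlap (log2 change 1.76 ± 0.35, adjusted p = 0.00472, limma). Divided by transcript length, the sum of both genes was 6.15 ± 1.14 RPM per kb after PBS (SD, n = 4) and 58.0 ± 2.77 after DT (SD, n = 3), a ratio of 9.43. Slc2a1 supplied 50.3, 19.8, 25.7 and 30.0% of that sum in PBS 1 to 4 and 7.69, 15.7 and 13.8% in DT 1 to 3. The groups do not overlap, although PBS 1 stood well above the other PBS libraries; the exact permutation p was 0.0571 (adjusted 0.131).

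Hexokinase traps glucose in the cell as glucose 6-phosphate. Hk1 is the form of most tissues and of red cells, Hk2 the inducible form of muscle, fat and many dividing cells, and Hk3 a form found mainly in myeloid cells. Hk3 was read at 26.1, 6.18, 17.4 and 10.3 RPM after PBS and at 264, 212 and 241 RPM after DT, so the PBS libraries varied among themselves but all lay far below DT. The means of 15.0 ± 8.75 and 239 ± 25.8 RPM (SD, n = 4 and 3) gave a ratio of 15.9, and the log2 change of 4.07 ± 0.38 (limma adjusted p = 5.67e-05) was the largest of the 31 and 101st of all tested genes. Hk2 moved the same way by less. Its PBS values were 9.19, 6.52, 10.7 and 10.01 RPM and its DT values 41.4, 45.9 and 45.4 RPM, tight groups with a ratio of 4.87 (log2 change 2.18 ± 0.22, limma adjusted p = 7.85e-05). Hk1 did not pass. It stood at 31.99 RPM in PBS 1 but at 103, 105 and 112 RPM in PBS 2 to 4, with 69.8, 85.1 and 62.1 RPM in DT 1 to 3 between them (log2 change -0.14, 95% interval -1.01 to 0.73, limma adjusted p = 0.814). Without PBS 1 the other PBS libraries all lay above DT and Hk1 was called lower (log2 change -0.56, limma adjusted p = 0.0139); median-ratio scaling put it at 0.11.

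Per length, the hexokinase sum was 17.3, 27.2, 31.9 and 31.2 RPM per kb after PBS and 106, 94.2 and 97.5 after DT. The form that made up most of it differed between the groups. Hk1 held 43.3, 88.6, 76.9 and 83.9% in PBS 1 to 4 and 15.4, 21.1 and 14.9% in DT 1 to 3, and Hk3 held 47.0, 7.07, 17.0 and 10.3% and then 77.5, 70.0 and 76.7%. Both shares were apart between groups, with PBS 1 the PBS library nearest to DT, at an exact permutation p of 0.0571 each (adjusted 0.131). Hk2 stayed a minor share, 6.47 ± 2.25% after PBS and 8.13 ± 0.91% after DT (SD, n = 4 and 3; exact p = 0.257). The neutrophil and monocyte sums given above moved in the same direction as Hk3. The erythroid sum was, like Hk1, lowest among PBS libraries in PBS 1, as were 36.9% of all tested genes. Neither link was tested.

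Gpi1, the isomerase that turns glucose 6-phosphate into fructose 6-phosphate, has no isoenzyme. It was read at 124, 140, 128 and 140 RPM after PBS and at 616, 514 and 520 RPM after DT. Both groups were narrow and far apart (ratio 4.13, log2 change 2.04 ± 0.13, limma adjusted p = 4.82e-06).

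Phosphofructokinase runs the committed step, and 1 of its 3 genes rose. Its sum per length was 12.9, 41.4, 35.03 and 29.1 RPM per kb after PBS and 23.9, 25.1 and 29.8 after DT, and the groups overlapped, with PBS 1 the lowest library and PBS 4 below DT 3. Pfkp, the platelet form, rose from 28.6, 20.5, 36.9 and 35.7 RPM to 69.4, 52.0 and 78.1 RPM (log2 change 1.12 ± 0.23, limma adjusted p = 0.00612). Pfkl, the liver form, which leukocytes also use, was at 46.8 ± 12.2 RPM after PBS and 55.2 ± 7.40 RPM after DT (SD, n = 4 and 3; log2 change 0.27, 95% interval -0.25 to 0.78, limma adjusted p = 0.406). Pfkm, the muscle form, varied widely within both groups. It lay at 4.97 RPM in PBS 1 and at 70.1, 45.8 and 35.1 RPM in PBS 2 to 4, and at 3.88, 6.37 and 22.7 RPM in DT 1 to 3. PBS 1 thus sat among the DT libraries, and DT 3 was the highest of these (log2 change -1.62 ± 0.80, limma adjusted p = 0.147). Without PBS 1 the change was -2.38 and passed (limma adjusted p = 0.00516), and without DT 3 it was -2.28 (limma adjusted p = 0.0886). In PBS 1 the erythroid sum was low, and the neutrophil and monocyte sums were the highest of the PBS libraries. In DT 3 the muscle genes stood out. Links of Pfkm with these sums and genes were not tested. Pfkm took 13.4, 58.8, 45.5 and 41.9% of the step after PBS and 5.65, 8.82 and 26.4% after DT (exact permutation p = 0.0857, adjusted 0.137). Shares at this step depend on the transcript length used, since the Pfkl share differed by 11.4 percentage points, DT minus PBS, with the longest transcripts and by -7.47 points with the median ones.

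Fructose 2,6-bisphosphate, the activator of phosphofructokinase, is made and removed by the PFKFB enzymes. Pfkfb4 rose the most of these, from 3.34, 5.98, 6.27 and 6.49 RPM after PBS to 102, 87.5 and 88.7 RPM after DT. The ratio of means was 16.8, the largest among the members, and the change was 128th of all tested genes (log2 change 3.87 ± 0.24, limma adjusted p = 4.15e-06). Pfkfb3, the form with the strongest kinase activity, was at 42.2, 16.7, 23.6 and 39.0 RPM after PBS and 42.5, 52.6 and 34.2 RPM after DT, with overlapping groups (log2 change 0.56, 95% interval -0.14 to 1.26, limma adjusted p = 0.196). Pfkfb2, known from heart, was at 4.71 ± 3.38 RPM after PBS and 2.73 ± 0.91 RPM after DT (SD, n = 4 and 3; limma adjusted p = 0.425).

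Of the PFKFB sum per length, Pfkfb4 took 9.42, 23.4, 23.6 and 17.4% after PBS and 76.0, 68.4 and 76.3% after DT. This split of the libraries was the most extreme of the 35 possible, at an exact permutation p of 0.0286, the smallest that 4 against 3 libraries allow (adjusted 0.131). Pfkfb3 took 86.4, 47.5, 64.6 and 75.8% and then 23.0, 29.8 and 21.4%, likewise apart (exact p = 0.0571). The sum itself was 8.96 ± 1.74 RPM per kb after PBS and 36.2 ± 2.61 after DT (SD, n = 4 and 3).

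In the middle of the pathway the called rises were smaller than those of Hk2, Hk3 and Gpi1. The rise of Aldoa was larger than that of Pfkp. Aldoa, the aldolase of muscle and most other tissues, had the highest mean per length of the members in both groups when near copies are left out. It rose from 221, 502, 420 and 383 RPM after PBS to 1006, 1084 and 1262 RPM after DT, with PBS 1 the lowest and DT 3 the highest (log2 change 1.60 ± 0.25, limma adjusted p = 0.00131; 1.51 and 0.00983 without DT 3, 1.36 and 0.000113 without PBS 1). Aldoc, the brain form, was under 3 RPM in every library and made up less than 1% of the step (limma adjusted p = 0.147). Tpi1, which interconverts the triose phosphates, was at 87.3, 198, 131 and 134 RPM after PBS and 146, 146 and 157 RPM after DT, all DT libraries within the PBS range (log2 change 0.18, 95% interval -0.35 to 0.70, limma adjusted p = 0.592).

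Pgk1, which makes the first ATP of the pathway, was read at 82.1, 88.2, 71.0 and 86.1 RPM after PBS and 157, 157 and 150 RPM after DT. It rose by less than its neighbours Aldoa and Pgam1, with narrow groups (log2 change 0.91 ± 0.13, limma adjusted p = 0.000836). Pgam1, the mutase that prepares the substrate of enolase, went from 85.6, 56.1, 67.6 and 56.8 RPM to 201, 215 and 181 RPM (log2 change 1.58 ± 0.17, limma adjusted p = 0.000143). Gapdh, the dehydrogenase often used as a reference gene, was at 21.0, 31.97, 25.8 and 27.6 RPM after PBS and 38.7, 41.6 and 41.8 RPM after DT. Its groups do not overlap, and it had the smallest of the 17 rises (log2 change 0.61 ± 0.18, limma adjusted p = 0.0294). The call was lost with any 1 of PBS 3, PBS 4, DT 1, DT 2 or DT 3 left out, at limma adjusted p between 0.0536 and 0.104.

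Eno1, the enolase of most tissues, rose from 128, 183, 172 and 177 RPM to 467, 420 and 479 RPM (log2 change 1.47 ± 0.15, limma adjusted p = 0.00011). Eno3, the muscle enolase, had 1.17, 13.1, 3.87 and 8.28 RPM after PBS and 9.45, 11.3 and 92.9 RPM after DT. Its high value belonged to DT 3 alone, the library with the muscle genes, and its groups overlapped (log2 change 1.91 ± 0.81, limma adjusted p = 0.0986; 0.89 and 0.368 without DT 3). Pgam2, the muscle mutase, showed the same library pattern, with 1.86 and 2.16 RPM in DT 1 and DT 2 and 40.1 RPM in DT 3. Eno1 held 98.8, 91.5, 97.2 and 94.3% of the enolase sum per length after PBS and 97.4, 96.6 and 79.9% after DT. The share of Eno3 was 4.12 points higher after DT with all libraries and 1.59 points lower without DT 3. These shares leave out the near copies of Eno1 described below, which held 63.6 to 67.9% of its joint sum. Eno3 had none, so its share is larger here than with the copies counted. Eno2 had a single PBS and a single DT library above 0, at 0.0511 and 0.0238 RPM, each under the level of 3 reads.

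**Figure D3:**
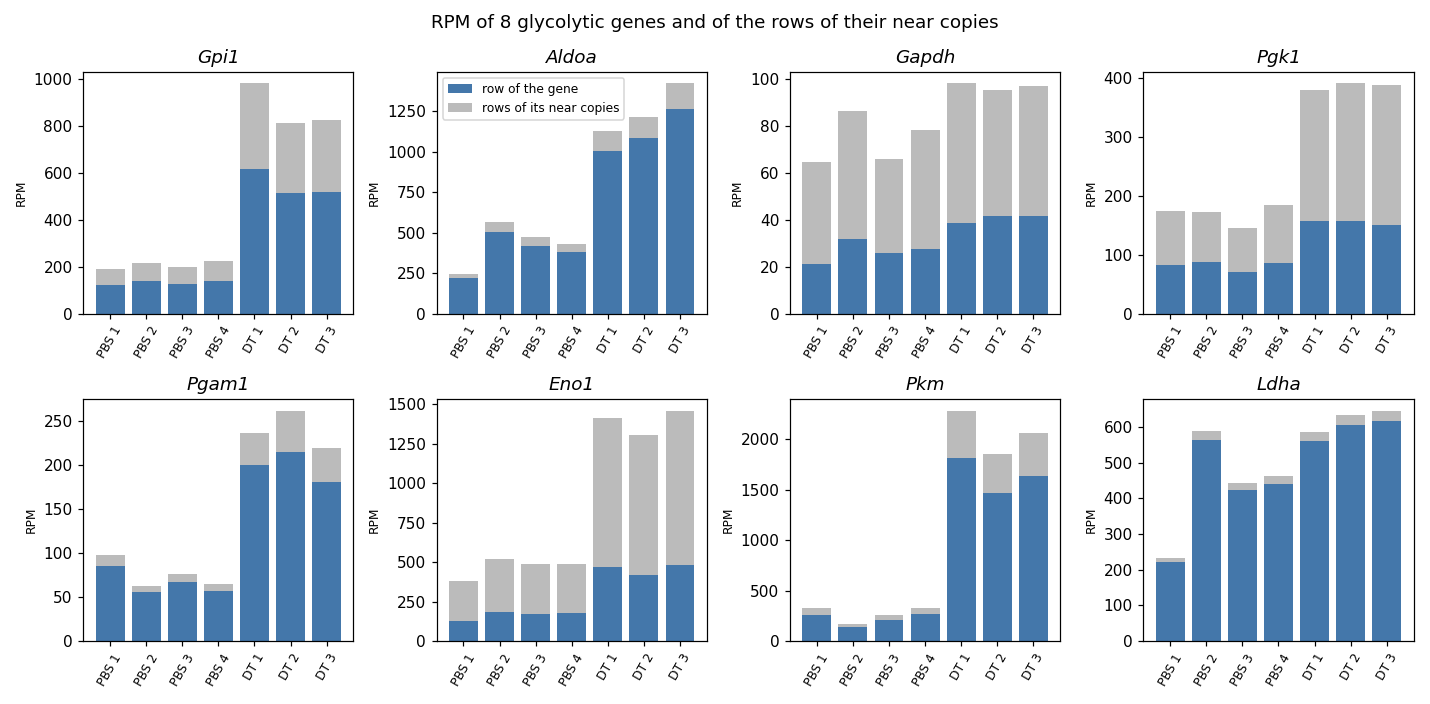
RPM of 8 glycolytic genes in each library (blue) with the summed rows of their near copies stacked on top (grey); each panel has its own linear axis from 0. The grey part is the larger one for Gapdh and Eno1 and small for Ldha.

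Several of these rows share sequence with processed copies elsewhere in the genome, and reads of 50 bases could have been split among them. Transcripts at least 90% identical to the member over at least 300 bases and over 50% of their own length were counted as near copies. Gapdh had 176, of which 6 had a mean of at least 1 RPM, and the 176 held 56.3 to 67.5% of the joint sum. Among the 6 was Peli2, annotated as a separate protein-coding gene, at 0.0527 to 0.934 RPM after PBS and 3.46 to 5.75 RPM after DT. The joint Gapdh sum therefore includes the change of Peli2. The 3 copies of Eno1 held 63.6 to 67.9%, the 2 of Pgk1 48.6 to 61.3%, and Gm1840, the copy of Gpi1, 34.97 to 37.5%. For Pkm 5 copies held 18.8 to 20.7%, and for Ldha 7 held 4.00 to 5.13%. With copies added to the member, Gapdh went from 73.9 ± 10.4 RPM after PBS to 96.7 ± 1.51 RPM after DT (SD, n = 4 and 3) and no longer passed (log2 change 0.39, limma adjusted p = 0.0666); the other 17 calls were kept. The levels of these genes are therefore uncertain, above all those of Eno1 and Gapdh, whose copies held most of the sum in every library. Among 7 tested rows of a list of named copies, 5 rose, including Eno1b, Pgk1-rs7, Pgam1-ps2 and Aldoart1, and 0 fell (median change 1.29). Over all tested genes 13.4% rose and 18.6% fell.

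Pkm, the pyruvate kinase of most tissues, runs the last step of glycolysis and had the largest change among the members from aldolase to lactate dehydrogenase. It was read at 262, 135, 205 and 263 RPM after PBS and at 1814, 1471 and 1634 RPM after DT. The lowest DT library was above 5 times the highest PBS library, and the ratio of means was 7.57 (log2 change 2.96 ± 0.23, limma adjusted p = 1.62e-05). Pklr, the form of liver and red cells, went the other way. It had 0.663 RPM in PBS 1, 64.8, 30.0 and 52.1 RPM in PBS 2 to 4, and 0.099, 1.24 and 0.170 RPM after DT (log2 change -3.86, limma adjusted p = 0.0228), so PBS 1 lay in the DT range and the 3 others far above it. PBS 1 and PBS 2 were the lowest and the highest PBS libraries for Pklr and for the erythroid sum alike. For the neutrophil and monocyte sums they were the highest and the lowest. These links were not tested.

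Lactate dehydrogenase converts pyruvate to lactate and back. Ldha, the form that dominates in muscle and is a classic HIF target, was at 221, 565, 424 and 440 RPM after PBS and 560, 606 and 618 RPM after DT. DT 1 lay under PBS 2, and the gene did not pass (log2 change 0.60, 95% interval -0.00172 to 1.21, limma adjusted p = 0.114). It did pass without PBS 2 (0.78, adjusted p = 0.0423), under median-ratio scaling (0.85, 0.0308) and with sample weights (0.51, 0.034). Ldhb, the heart form, rose from 2.29, 1.97, 6.07 and 3.11 RPM to 18.2, 21.9 and 34.1 RPM, a ratio of 7.36 (log2 change 2.60 ± 0.36, limma adjusted p = 0.000639). It remained the lesser form. Its share of the step per length was 1.43, 0.483, 1.95 and 0.974% after PBS and 4.33, 4.79 and 7.14% after DT, apart in all libraries (exact permutation p for the Ldha share = 0.0286, adjusted 0.131).

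At the entry to mitochondria neither member passed. Pdha1, the catalytic subunit of pyruvate dehydrogenase, was at 149 ± 14.8 RPM after PBS and 148 ± 3.83 RPM after DT (SD, n = 4 and 3), the interval of its log2 change being -0.30 to 0.28 (limma adjusted p = 0.971). Pdk1, a kinase that inactivates that enzyme and is itself a HIF target, was at 9.55 RPM in PBS 1 and 35.3, 27.3 and 29.9 RPM in PBS 2 to 4, with 8.11, 11.01 and 11.01 RPM after DT. PBS 1 again sat with DT. The log2 change of -1.13 ± 0.40 did not pass (limma adjusted p = 0.0519) but did without PBS 1 (-1.53, adjusted p = 0.000569), with a filter of 5 RPM (0.041), with quantile normalization (0.0458) and with sample weights (0.00368); in the other fits its adjusted p was above 0.05.

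The lactate transporters moved in opposite directions. Slc16a1 encodes MCT1, which carries lactate, pyruvate and ketone bodies in either direction and is strongly expressed in red cell precursors. It was at 159, 199, 126 and 136 RPM after PBS and at 42.4, 45.3 and 33.0 RPM after DT. All DT libraries lay well below all PBS libraries, PBS 1 included; the mean was 3.84-fold higher after PBS (log2 change -1.91 ± 0.19, limma adjusted p = 8.21e-05), the 143rd lowest change of all tested genes. Of the 12 erythroid markers 9 fell as well and 3 rose. The 9 summed to 726 RPM in PBS 1 and to 6470 to 10465 RPM in PBS 2 to 4. Slc16a1 in PBS 1 lay within the range of PBS 2 to 4. The part of erythroid RNA in the fall of Slc16a1 was not tested. Slc16a3 encodes MCT4, the export form of highly glycolytic cells. It rose from 2.23, 3.58, 3.56 and 5.02 RPM to 40.8, 41.0 and 49.9 RPM, a ratio of 12.2 (log2 change 3.32 ± 0.27, limma adjusted p = 2.02e-05).

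Slc16a1 made up 98.6, 98.2, 97.2 and 96.4% of the sum per length after PBS and 50.4, 52.0 and 39.3% after DT. The PBS libraries lay close together and all DT libraries far below them, and the exact permutation p was the smallest possible, 0.0286 (adjusted 0.131). The sum itself was lower after DT, 35.8 ± 7.25 against 19.2 ± 0.42 RPM per kb (SD, n = 4 and 3). Bsg, the chaperone that brings both transporters to the membrane, was at 159 ± 59.6 and 119 ± 14.1 RPM and did not pass (limma adjusted p = 0.353), whereas Emb, a related chaperone of MCT1, rose from 30.3 ± 15.1 to 246 ± 15.0 RPM (log2 change 3.08, limma adjusted p = 5.1e-05).

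**Figure D4:**
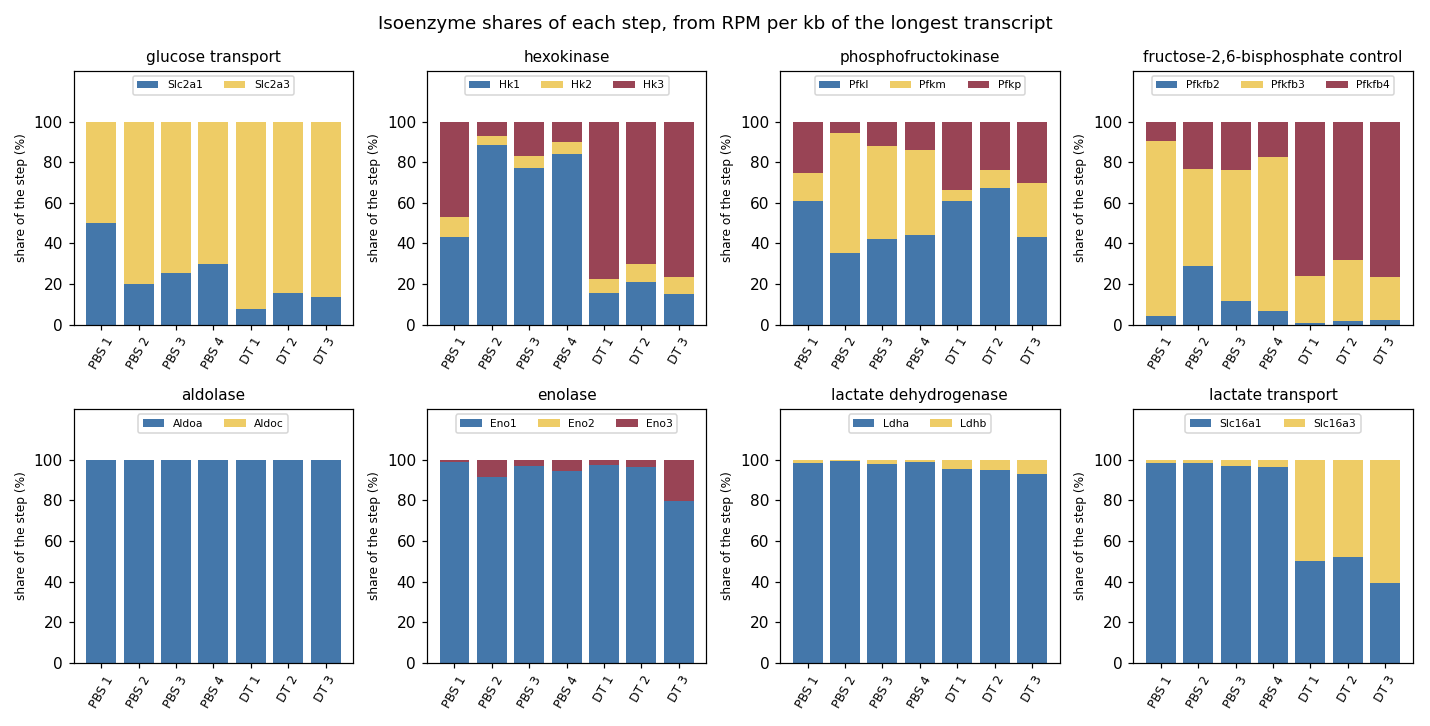
Share of each isoenzyme in its step, in percent of the summed RPM per kb of the longest transcript, 1 bar per library, for the 8 steps with more than 1 member. Rows of near copies are left out. After DT, Hk3 and Pfkfb4 hold the largest part of their steps and Slc16a1 and Slc16a3 hold similar parts, where Hk1 (except in PBS 1), Pfkfb3 and Slc16a1 lead after PBS; Aldoa, Eno1 and Ldha hold most of their step in every library.

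Across the 8 steps, 16 share tests were made. In 8 of them the libraries of the groups did not overlap, and 3 reached an unadjusted exact permutation p of 0.0286. After Benjamini-Hochberg adjustment 0 passed, and the smallest value was 0.131. With 4 against 3 libraries the exact p cannot go under 0.0286. Over 16 tests that value passes the adjustment only if most of the tests reach it. A few clean splits could therefore not pass, and 0 passing does not show that shares were alike. Tests on the log2 ratio of an isoenzyme to the rest of its step gave 0.102 at the lowest. Lengths were those of the longest annotated transcript, so shares depend on which transcript the cells make. Rows of near copies were left out of the shares, which matters most for enolase.

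The order of the members by level differed between the groups. Per length, the PBS means were highest for Aldoa (246 ± 76.2 RPM per kb, SD, n = 4), Ldha (227 ± 78.6), Pkm (89.0 ± 24.9), Tpi1 (85.6 ± 28.5) and Eno1 (81.4 ± 12.4). Aldoa and Ldha did not differ beyond their spread, nor did the next 3. In DT the order was Aldoa (721 ± 84.8 RPM per kb, SD, n = 3), Pkm (674 ± 70.5), Ldha (328 ± 16.8), Eno1 (225 ± 15.3) and Gpi1 (172 ± 17.8). Aldoa and Pkm were within their spread there, and Ldha stood clear below both. The near copies described above change this order. With them added, still per length of the member, Eno1 was at 232 ± 30.3 RPM per kb after PBS, level with Ldha (238 ± 81.4), and at 688 ± 38.7 after DT, above Ldha (343 ± 17.6). Pkm and Aldoa were then at 850 ± 88.8 and 810 ± 97.6 RPM per kb after DT, again within their spread.

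Of the 4 hypoxia genes 2 rose, where 13.4% of all tested genes rose and 18.6% fell. A count over 4 genes is not read as a result about the hypoxia response. Hif1a, the oxygen-regulated subunit of the factor, was at 51.1, 22.7, 30.7 and 24.2 RPM after PBS and 33.9, 30.5 and 26.8 RPM after DT, all DT libraries inside the PBS range (log2 change -0.01, 95% interval -0.62 to 0.60, limma adjusted p = 0.98). Its activity is set mainly by protein stability, which RNA does not show. Bnip3, a mitophagy receptor induced by HIF, was at 41.7, 31.2, 43.5 and 32.3 RPM after PBS and 37.0, 23.1 and 38.6 RPM after DT (log2 change -0.19, limma adjusted p = 0.545). Egln3, a HIF-induced prolyl hydroxylase, was at 2.20, 0, 1.00 and 1.03 RPM after PBS and 6.53, 6.59 and 3.47 RPM after DT, and Ndrg1, a stress-induced gene of growth arrest, at 10.9, 19.2, 7.91 and 19.1 against 28.4, 26.3 and 27.9 RPM. In both, all DT libraries were higher and the gene rose, Egln3 by 1.74 ± 0.42 (limma adjusted p = 0.0114) and Ndrg1 by 0.98 ± 0.31 (0.0337). Neither call was firm. Without the filter on low values the adjusted p became 0.0624 and 0.103, and that of Ndrg1 was 0.0613 to 0.101 with any 1 of PBS 3, DT 1, DT 2 or DT 3 left out. Under median-ratio scaling the changes of Hif1a, Bnip3 and Pdha1 turned to 0.23, 0.05 and 0.24.

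Of 7 tested genes that form or control HIF, 0 passed in either direction by limma, with 2 at an unadjusted p under 0.05. These were Vhl, which targets HIF for destruction (11.6 ± 3.20 RPM after PBS, 19.0 ± 1.85 RPM after DT, adjusted p = 0.056), and Cited2, which blocks its coactivator (8.70 ± 1.61 and 14.0 ± 1.85 RPM, 0.0716); under median-ratio scaling 2 genes of the list passed as higher. Epas1, the HIF subunit typical of endothelium, was below the filter, at 0.0264 to 2.38 RPM. Of 25 tested further genes often listed as hypoxia targets, 8 rose and 3 fell (median change 0.28). Over all tested genes the shares were 13.4% and 18.6%. The strongest rises were those of Fos, an immediate-early transcription factor (15.2 ± 6.30 to 244 ± 112 RPM, limma adjusted p = 4.33e-05), Hmox1, which degrades heme (13.9 ± 3.11 to 200 ± 130 RPM, 7.15e-05), and Bhlhe40, a transcriptional repressor (2.12 ± 0.92 to 25.8 ± 6.61 RPM, 8.94e-05). Ak4, an adenylate kinase of mitochondria, was at 3 reads or fewer in every PBS library and at 5.75, 3.35 and 5.28 RPM after DT (limma adjusted p = 0.000203). In DT 1 to 3, Fos was at 200, 161 and 371 RPM and Hmox1 at 130, 122 and 350 RPM. Both were highest in DT 3, the library with muscle RNA. Fos and Hmox1 respond to many stresses besides low oxygen. Vegfa, the best known HIF target, was at 3.22 ± 0.90 and 2.90 ± 0.62 RPM (limma adjusted p = 0.814); it and Bnip3l (130 ± 15.0 and 126 ± 23.4 RPM, 0.839) were picked with their values known.

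The pathways that branch from glycolysis gave a mixed account. Of 8 pentose phosphate genes, which make NADPH and ribose, 5 rose and 2 fell, where 13.4% of all tested genes rose and 18.6% fell. Pgd and G6pdx, the NADPH-yielding dehydrogenases, rose from 94.5 ± 10.02 to 487 ± 27.1 RPM and from 57.5 ± 13.7 to 274 ± 3.68 RPM (limma adjusted p = 2.82e-06 and 1.9e-05). Taldo1, the transaldolase, rose from 355 ± 75.8 to 673 ± 33.0 RPM (0.00421), but Pgls, the lactonase between the dehydrogenases, fell from 262 ± 55.3 to 123 ± 16.4 RPM (0.00169). All 10 glycogen genes were tested, and 6 rose and 0 fell (median change 0.92). Pygl, the liver-type phosphorylase that leukocytes also use, went from 21.1 ± 6.06 to 263 ± 33.5 RPM (limma adjusted p = 3.14e-06), Gys1, a glycogen synthase, from 11.6 ± 2.01 to 53.2 ± 4.73 RPM (5.29e-05), Ugp2, which makes UDP-glucose, from 28.5 ± 9.25 to 67.7 ± 6.07 RPM (0.00475), and Gbe1, the branching enzyme, from 14.4 ± 4.12 to 30.2 ± 2.57 RPM (0.0092). Genes for breakdown and for synthesis thus rose together. The neutrophil and monocyte sums given above were also higher after DT, and their part in these rises was not tested.

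**Figure D5:**
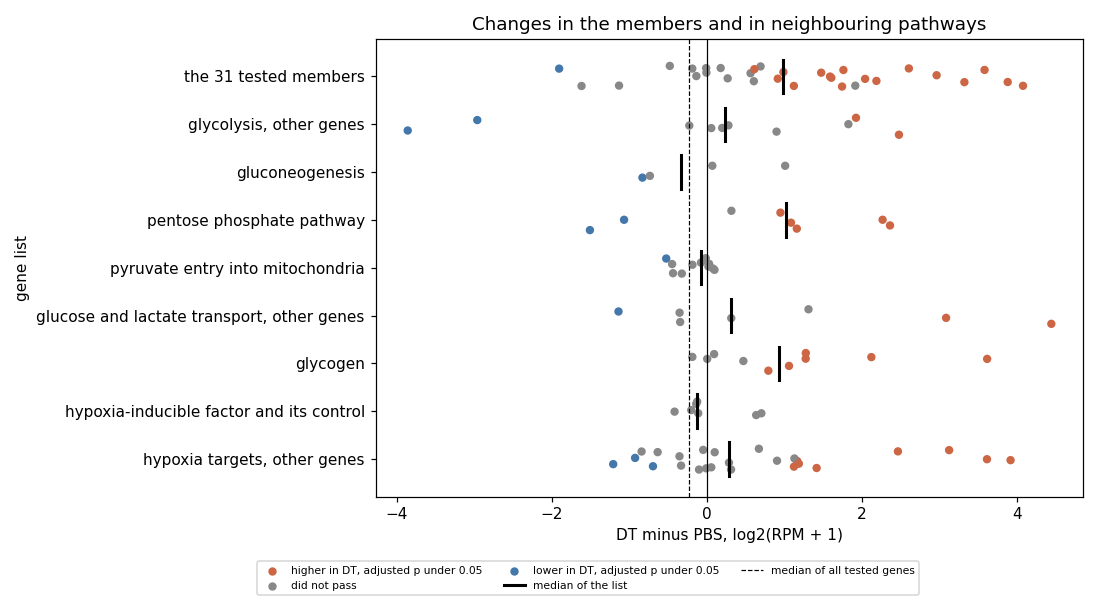
Log2 change, DT minus PBS, of each tested gene in the 31 tested members and in 8 lists of related genes; points in red rose, points in blue fell, grey points did not pass, short black bars are list medians and the dashed line is the median of all tested genes. The members and the pentose phosphate and glycogen lists have medians of 0.98, 1.01 and 0.92, and the list for pyruvate entry and that for control of HIF have medians near 0.

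Among 10 tested further glycolysis genes 2 rose and 2 fell. For this and the lists below, the shares over all tested genes were 13.4% for rises and 18.6% for falls. The counts of these short lists are not read as results about the pathways. Adpgk, an ADP-dependent glucokinase, rose from 20.0 ± 1.95 to 116 ± 7.92 RPM (limma adjusted p = 4.15e-06) and Pgm2 from 8.92 ± 2.17 to 36.0 ± 3.96 RPM (0.000252), while Minpp1, a phosphatase that can remove bisphosphoglycerate, fell from 78.5 ± 44.6 to 7.63 ± 2.33 RPM (0.00322), beside the fall of Pklr given above. Bpgm, the shunt enzyme that is typical of red cells, was at 19.4 ± 2.46 and 23.6 ± 1.37 RPM and did not pass (0.288); it was chosen after its values were seen. Of 7 tested further transport genes 2 rose and 1 fell. Slc2a6, a hexose transporter of leukocyte lysosomes, had the largest change of any listed pathway gene, from 2.10 ± 1.52 to 61.7 ± 12.0 RPM (log2 change 4.44, limma adjusted p = 2.28e-05), and Slc2a8 fell from 8.02 ± 2.24 to 3.09 ± 1.18 RPM (0.0223). For pyruvate entry into mitochondria 0 of 11 rose and 1 fell, Pdhb, the partner subunit of Pdha1 (153 ± 17.3 to 106 ± 11.2 RPM, limma adjusted p = 0.0209). For gluconeogenesis 0 of 4 rose and 1 fell, Pck2, the mitochondrial carboxykinase (88.5 ± 32.1 to 46.8 ± 5.26 RPM, 0.0459), whose groups overlapped. Neither of these falls passed under median-ratio scaling.

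HIF binds DNA at a short core, and E-box factors use an overlapping one. The letters ACGTG and GCGTG were searched on both strands in the 250 bases before each RefSeq start site on GRCm38.p6; the 2 overlap where CACGTG is read. RefSeq windows were found for 30 of the 32 genes. Of these, 27 had a match in at least 1 window, against 60.9% of 9250 tested genes with a window, and 37 of their 45 windows had 1, against 55.0% of the windows of tested genes and 38.6% of all 32851 windows in the table. Matches were present in 14 of 15 genes that rose and in 12 of 13 that did not pass, so the letters did not separate them. Windows of 3 members are shown, Hk2 and Hk3 because both isoenzymes rose and Slc16a1 because it is the gene that fell; each runs 5′ to 3′ on the strand of the gene and ends at the base before the start site, and capitals mark the matches on either strand.
Hk2, chr6:82774455-82774704, minus strand: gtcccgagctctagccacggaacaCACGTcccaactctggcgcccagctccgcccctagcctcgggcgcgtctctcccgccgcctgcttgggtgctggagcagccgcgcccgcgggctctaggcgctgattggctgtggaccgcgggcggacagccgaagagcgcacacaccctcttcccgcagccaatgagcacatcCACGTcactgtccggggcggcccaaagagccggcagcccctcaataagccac
Hk3, chr13:55021386-55021635, minus strand: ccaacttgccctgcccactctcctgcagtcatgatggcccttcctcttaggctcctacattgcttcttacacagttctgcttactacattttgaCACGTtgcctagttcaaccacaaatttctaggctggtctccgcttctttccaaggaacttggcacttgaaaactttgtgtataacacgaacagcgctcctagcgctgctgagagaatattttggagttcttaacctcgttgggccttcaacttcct
Slc16a1, chr3:104638414-104638663, plus strand: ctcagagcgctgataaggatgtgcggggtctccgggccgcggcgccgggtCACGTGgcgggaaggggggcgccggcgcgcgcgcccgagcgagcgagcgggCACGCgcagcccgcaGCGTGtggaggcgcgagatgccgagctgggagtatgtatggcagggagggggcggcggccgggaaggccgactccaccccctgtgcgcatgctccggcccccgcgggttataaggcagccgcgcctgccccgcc
Hk2 has matches that begin 226 and 52 bases before the start site, Hk3 has 1 at 156, and Slc16a1 has 4, at 200, 199, 149 and 134, of which the first pair is the 2 strands of a single CACGTG. The gene that fell holds more of these letters than Hk3, the member with the largest change. A match is a run of letters and no evidence of binding.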

How the data were processed

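RNA of 7 sorted marrow samples was sequenced as single reads of 50 bases from libraries made with 1 ng of RNA and 14 cycles of amplification, per the labels' protocols. STAR 2.5.3a, Partek and mm10 are named per the submitters' processing notes; annotation, treatment of reads with several matches and use of strand are not given in the sources at hand. A single table was deposited, whose name states FPKM, but its values were read as RPM plus an offset of 0.0001. In each library the commonest value above the offset was shared by more than 1000 genes of all lengths. It was taken as 1 read, although smaller values above the offset occur. The offset was subtracted. Whole reads were not recovered, since 61.1 to 63.0% of values up to 20 reads were whole within 0.02 of a read, so no count model was used. Column sums were 75.4 to 82.2% of the total that RPM implies. A total of 26 rows have names turned into dates; they stayed in the fit.

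Limma 3.58.1 in R 4.3.3 was fitted to log2(RPM + 1) of the 14100 genes averaging 1 RPM or more, with an intensity trend, two-sided. Isoenzyme shares came from RPM divided by the longest GENCODE vM21 transcript and were compared by exact two-sided permutation over 35 splits. Near copies were found with minimap2 2.31. The code was tested on simulated data. The members and lists were chosen with earlier results of these data known. All 32 members are named, and of other pathway lists up to 4 genes past the threshold with the smallest p (2 where none passed), of cell type lists the 2 most abundant genes. Pathway genes named beyond this rule include Bsg, Pgam2, Epas1, Vegfa, Bnip3l and Bpgm. Cell type genes named beyond it include Cdh5, Stab2, Hbb-bs, Hba-a1 and Alas2. Alternatives covered the pseudocount, filter, scaling, trend, weights, replicate block, a fold minimum, transcript lengths and each library left out; summing near copies was added after seeing the data.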

Additional observations from a re-analysis of the deposited data

Results flagged for a closer look

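In groups of 4 PBS libraries, 3 of 46 values checked had a single library far from the others; about 1 in 20 such values is expected to do so by chance. Hk1 was at 31.99 RPM in PBS 1, below 103, 105 and 112 RPM in the other PBS libraries. Pfkfb4 was at 3.34 RPM in PBS 1, below 5.98, 6.27 and 6.49 RPM. The share of Eno2 in the enolase sum was 0.0185% in PBS 2 and 0 in the other PBS libraries, which rests on about 2 reads. PBS 1 was the lowest PBS library in 16 of the 31 tested members and in 36.9% of all tested genes.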

How the results depend on the processing

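Each member that passed kept its direction in every fit that tested it, and 92 of 108 counts stayed within 1.5 times the value reported. Over all genes, 1894 rose and 2622 fell. Falls numbered 1689 without a filter, 1258 under median-ratio scaling, 1574 with a replicate block and 218 beyond 1.5-fold, where rises numbered 987; with 1 library left out there were 1383 to 2108 rises and 1208 to 3628 falls. Members that fell numbered 2 with a filter of 5 RPM, 2 with quantile normalization, 3 with sample weights and 1 to 4 with 1 library left out (15 to 18 rose); beyond 1.5-fold, 12 rose. Median-ratio scaling left 0 falls in gluconeogenesis, 0 in pyruvate entry and 1 in hypoxia targets, and gave 2 rises in HIF control.

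Changes near 0 turned sign. Under median-ratio scaling Hk1 was at 0.11, Pdha1 at 0.24, Hif1a at 0.23 and Bnip3 at 0.0499. Quantile normalization put Pdha1 at 0.0663 and Hif1a at 0.0848, and sample weights put Hif1a at 0.0934. With 1 library left out Hk1 ranged from -0.56 to 0.0277, Pdha1 from -0.0767 to 0.039, Hif1a from -0.15 to 0.23, Bnip3 from -0.32 to 0.0387 and Tpi1 from -0.0212 to 0.37. The share difference of Pfkl was -7.47 points with median transcript lengths. Left-out libraries moved the share differences of Aldoa from -0.00667 to 0.0551, of Eno1 from -7.17 to 1.59, of Eno2 from -0.00485 to 0.00132 and of Eno3 from -1.59 to 7.17 points. The cause was not tested.

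Libraries with the same number correlated at 0.042, 0.049 and 0.010 in their deviations, and those with different numbers at -0.048 to 0.048. Values this low over all genes cannot show whether libraries of the same number share a batch. With the replicate block Hk1 was at 0.0277 and Pdha1 at 0.039, 16 members rose and 1 fell, and Gapdh lost its call (adjusted p = 0.0743). Genes near 1 RPM rest on few reads, and with a left-out library a group of 2 sets the spread.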
